A study of Mus musculus with 6 samples.

Results

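A set of 10 genes of antigen presentation was followed in inguinal fat, a subcutaneous depot, of mice picked for a high or a low weight gain on the same diet. They were chosen by gene symbol: 8 belong to the major histocompatibility complex (MHC) class II pathway (H2-Aa, H2-Ab1, H2-Eb1, H2-DMa, H2-Oa, H2-Ob, Cd74 and Ciita) and 2 to the loading of MHC class I (Tap1 and B2m). Each of the 10 genes had 1 probe with a single gene name among the 33012 probes of the array, which name 13840 genes in this way, 8596 of them with a value on every array, and all 10 probes had a value on all 6 arrays. All mice were male C57BL/6J, an inbred strain, and were fed a diet high in saturated fat (D12331) for 4 weeks, starting when they were 8 weeks old. RNA from 8 high gainers was combined, as was RNA from 8 low gainers, and each of the pools was put on 3 one-color chemiluminescent arrays. The 3 arrays of a pool repeat the measurement of 1 RNA mixture, so that every n below counts arrays, and the p-values hold for the spread between arrays of these 2 pools and not for the spread between mice. The pools differ in weight gain as the mice were picked for it, and the labels give no further difference in strain, sex, diet or age. Signal is given as the normalized intensity of a probe, without unit, and ratios are log2 of high over low gainers, so that a negative ratio means lower in high gainers.

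MHC class II molecules are pairs of an alpha and a beta chain that show peptides from ingested material to helper T cells. B cells, dendritic cells and macrophages are the main cells that make them. The chains are assembled in the endoplasmic reticulum on the invariant chain, whose gene is Cd74. In the endosome the remnant of the invariant chain is replaced by peptide with the help of H2-M, of which H2-DMa encodes the alpha chain, and H2-O, made by H2-Oa and H2-Ob, restrains H2-M, above all in B cells. Ciita is the coactivator that the class II promoters require. Class I molecules are made by nearly all nucleated cells, carry B2m as their light chain and receive peptides that Tap1, with Tap2, pumps into the endoplasmic reticulum.

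Class II promoters are known for an X box and, closer to the start, a Y box with the letters ATTGG, on which Ciita is assembled. The promoter windows of 4 class II members and of B2m are printed to show where these letters stand in genes whose signals are compared below. Each is the 120 bases before the start site, 5' to 3' on the strand of the gene, from RefSeq sequences of GRCm38.p6. Capitals mark ATTGG and, in the 4 class II windows, the GNAAC match that precedes it, N being any base.
H2-Aa, chr17:34287824-34287943, minus strand: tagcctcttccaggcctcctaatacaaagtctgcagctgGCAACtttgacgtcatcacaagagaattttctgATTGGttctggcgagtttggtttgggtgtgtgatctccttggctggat
H2-Eb1, chr17:34305747-34305866, plus strand: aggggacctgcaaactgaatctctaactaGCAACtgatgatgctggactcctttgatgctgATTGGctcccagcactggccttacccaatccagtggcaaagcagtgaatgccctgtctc
H2-Oa, chr17:34092259-34092378, plus strand: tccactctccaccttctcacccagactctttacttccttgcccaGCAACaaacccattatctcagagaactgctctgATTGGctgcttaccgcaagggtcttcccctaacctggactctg
H2-Ob, chr17:34238785-34238904, plus strand: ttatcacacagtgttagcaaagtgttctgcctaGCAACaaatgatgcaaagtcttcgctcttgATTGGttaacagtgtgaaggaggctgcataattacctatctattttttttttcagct
B2m, chr2:122147567-122147686, plus strand: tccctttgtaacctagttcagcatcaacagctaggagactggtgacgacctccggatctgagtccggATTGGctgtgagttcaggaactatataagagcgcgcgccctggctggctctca
RefSeq windows were matched for 7 of the 10 members, and none for H2-Ab1, Cd74 and Ciita. Among the 250 bases before the start, GNAAC followed by ATTGG with starts 28 to 42 bases apart was found in 4 of 5 class II members, which are those printed, and in 0 of 2 class I loading members. The distance was 33 bases in H2-Aa, 32 in H2-Eb1, 33 in H2-Oa and 30 in H2-Ob. Neither of the windows of H2-DMa held the pair. On both strands, ATTGG alone stood in 33.8% of the 32851 promoters of the table, GNAAC alone in 79.6% and the pair in 2.04%. B2m has ATTGG 53 bases before its start, and the ATTGG of Tap1 lies on the minus strand 222 bases before its start. The letters and their spacing were chosen after the sequences had been seen, and a match describes the sequence only. A window without the pair, such as that of B2m, is not shown to lack an X box with other letters.

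All 8 class II members were lower in the high gainer pool, with a median log2 ratio of -0.87 and a range of -1.73 to -0.47, whereas B2m was not. The median over all 15821 probes with a value on every array was 0.03. In limma, with Benjamini-Hochberg adjustment over these probes, a call needed an adjusted p under 0.01 and a fold of at least 1.5. By this rule 6 of 8 class II members and 1 of 2 class I loading members, Tap1, were called lower, 7 of 10 in all, beside 3.99% of all tested probes. In the other direction 0 of 10 members were called, beside 2.5% of all tested probes. In 9 of 10 members the highest of the 3 high gainer arrays lay below the lowest of the 3 low gainer arrays, which held for 16.3% of all tested probes, and in 0 of 10 members the arrays were separated in the other direction, which held for 20.3%. The test of the methods, run probe by probe, called 8 members lower at an unadjusted p under 0.01 and 1.5-fold, beside 4.29% of all tested probes, and 1 member, H2-Ob, after adjustment, beside 0.702%. The members were chosen with earlier results of these data known, so these counts and shares describe the members and do not test the set. In bulk tissue, fewer cells of a type and less RNA per cell cannot be told apart. When 1 array was left out, the number of members called fell to 2 without high gainer array 1, low gainer array 2 or low gainer array 3, to 3 without high gainer array 2 or 3, and to 5 without low gainer array 1.

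**Figure D1:**
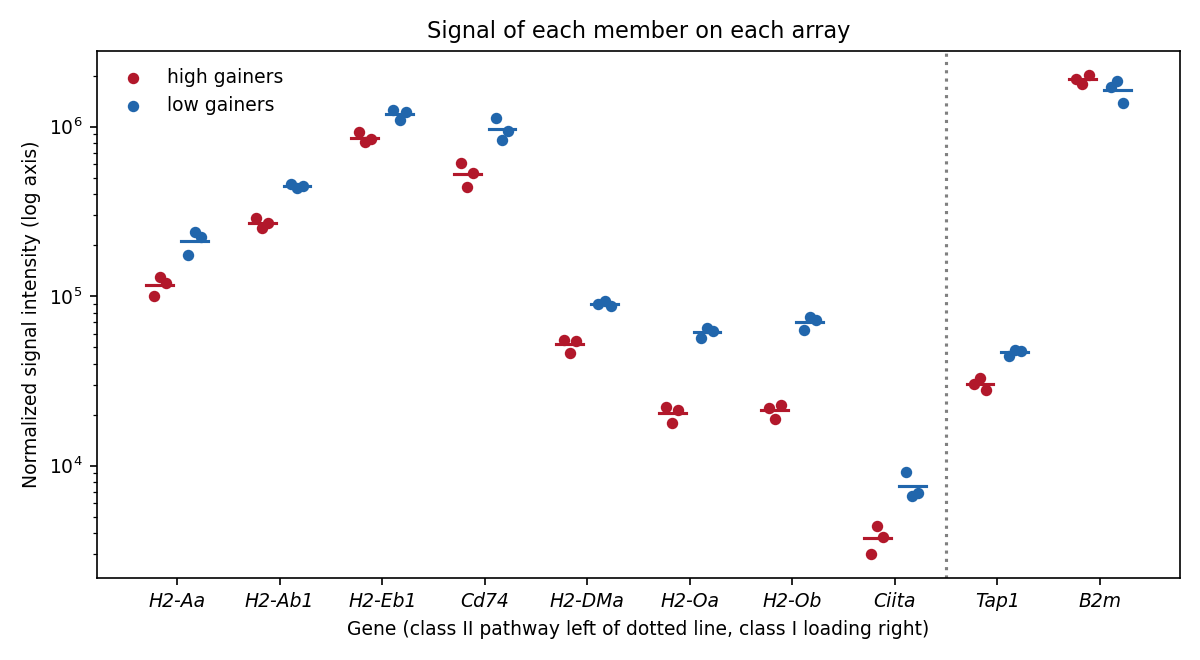
Normalized signal intensity (log axis) of the 10 members on each array, with high gainers in red, low gainers in blue, 1 point per array and a line at the mean of the 3 arrays of a pool. The red and blue points are separate for every gene but B2m, where low gainer array 2 lies among the high gainer arrays.

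The classical chains were lower in high gainers by 1.38-fold to 1.81-fold. H2-Ab1, the beta chain of the I-A molecule, gave signals of 289126, 252069 and 268763 on the 3 high gainer arrays and 459587, 437284 and 444264 on the 3 low gainer arrays. The pools did not overlap, and the means were 269986 ± 18559 and 447045 ± 11409 (SD, n = 3 arrays each). The log2 ratio was -0.73 with a standard error (SE) of 0.095, and H2-Ab1 was called lower by limma at an adjusted p of 0.00253. H2-Aa, the alpha chain of the same molecule, gave 99652, 130007 and 120013 in high gainers and 173773, 239295 and 222628 in low gainers. Array 1 of each pool gave its lowest H2-Aa signal, and again no value of one pool fell within the other. The log2 ratio of H2-Aa was -0.86 (SE 0.16), larger in size than that of H2-Ab1, but its arrays were more spread and it was not called, at an adjusted p of 0.0106 just above the threshold. H2-Aa was called without low gainer array 1, at an adjusted p of 0.00871, and H2-Ab1 lost its call without each of the other arrays, at adjusted p up to 0.0139.

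H2-Eb1 encodes the beta chain of the I-E molecule. Its signals were 925113, 815481 and 847888 in high gainers and 1258467, 1095991 and 1220312 in low gainers, with no overlap. The log2 ratio of -0.47 (SE 0.10, 95% interval -0.71 to -0.23) was the smallest of the 8 class II members, and H2-Eb1 passed neither threshold, with 1.38-fold and an adjusted p of 0.0221 in limma. The probe for H2-Ea, the alpha chain that pairs with it, had no value on any of the 6 arrays. As background, C57BL/6 mice carry an MHC haplotype in which H2-Ea is not expressed.

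Cd74, H2-DMa, H2-Oa and H2-Ob, which take part in peptide loading or in its restraint, all fell. H2-Oa and H2-Ob had the lowest ratios of the 10 members. Cd74, the invariant chain, gave 606694, 441384 and 530891 in high gainers and 1131591, 836883 and 944484 in low gainers. The lowest low gainer array lay above the highest high gainer array. Cd74 was called lower by 1.85-fold (log2 ratio -0.88, SE 0.16) at an adjusted p of 0.00996, just below the threshold, and lost the call whichever array was left out, at adjusted p up to 0.0336. H2-DMa, the alpha chain of the peptide exchanger H2-M, gave 55353, 46439 and 54403 against 89455, 93595 and 87475. The low gainer arrays of H2-DMa lay close together, and it was called lower by 1.74-fold (log2 ratio -0.80, SE 0.10, adjusted p = 0.00267). Its call was lost without high gainer array 1, low gainer array 2 or low gainer array 3, at adjusted p up to 0.0130. The genes of its partner chain, H2-DMb1 and H2-DMb2, had no probe with a single name and were not analysed here.

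H2-Oa, the alpha chain of H2-O, gave 22264, 17919 and 21207 in high gainers and 56480, 64426 and 62423 in low gainers. H2-Ob, its beta chain, gave 22017, 18911 and 22643 in high gainers and 63481, 75719 and 72321 in low gainers. In both genes high gainer array 2 was the lowest of its pool, and low gainer array 1 was the lowest and array 2 the highest of the other. H2-Oa fell by 2.99-fold (log2 ratio -1.58, SE 0.12, 95% interval -1.86 to -1.31, adjusted p = 0.000309 in limma). H2-Ob fell by 3.33-fold (log2 ratio -1.73, SE 0.12, 95% interval -2.01 to -1.46, adjusted p = 0.000222 in limma). Counted from the lowest log2 ratio of all tested probes, H2-Ob ranked 83 and H2-Oa ranked 133. Both kept their calls when any 1 array was left out, at adjusted p up to 0.00227.

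Ciita, the coactivator of class II transcription, fell by 2.04-fold. Its signals were 3013, 4383 and 3770 in high gainers and 9149, 6648 and 6909 in low gainers, and they did not overlap. The probe was dim, meaning that its mean lay in the lowest 33.3% of the tested probes, and its standard error was the widest of the 10 members (log2 ratio -1.03, SE 0.18, adjusted p = 0.00876 in limma). Its call was lost whichever array was left out, at adjusted p up to 0.0318. With an offset of 2848 added to all signals, its log2 ratio was -0.66. Of the other factors that bind the class II promoters, Rfxank (log2 ratio -0.11), Rfxap (0.21), Nfyc (-0.01) and Creb1 (-0.19) were measured and were not called. Creb1 has 3 named probes, and only the one with the highest mean is given.

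The members that load class I did not move together. Tap1, a subunit of the peptide pump, gave 30469, 32739 and 27865 in high gainers and 44469, 48336 and 47251 in low gainers. The pools did not overlap and Tap1 was called lower by 1.54-fold, little above the 1.5-fold threshold (log2 ratio -0.62, SE 0.10, adjusted p = 0.00651 in limma). Its call was lost whichever array was left out, at adjusted p up to 0.0337. B2m gave 1907407, 1775844 and 2025710 in high gainers and 1711816, 1863605 and 1383348 in low gainers. Low gainer array 2 lay above high gainer array 2, and low gainer array 3 was the lowest of all 6. The log2 ratio of B2m was 0.21 (SE 0.13, 95% interval -0.10 to 0.52), and it was not called, at an adjusted p of 0.329. This interval held none of the 8 class II ratios. The probes of B2m, H2-Eb1 and, on most arrays, Cd74 are among the brightest, where quantile normalization gave the highest 437 ranks equal values on all arrays, so that their values follow from their ranks.

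Class II was set against B2m within each array by subtracting the log2 signal of B2m from that of each class II member. Tap1 was not used in this way. Its log2 ratio of -0.62 lies between those of H2-Eb1 and H2-Ab1, so the differences from B2m do not stand for class I loading as a whole. All 8 differences were lower on every high gainer array than on any low gainer array, which held for 22.9% of the other tested probes after the same subtraction. B2m was itself higher by 0.21 on the log2 scale in high gainers, so that the subtraction lowers the ratio of every probe by that amount. High minus low, they were -1.95 for H2-Ob, -1.79 for H2-Oa, -1.24 for Ciita, -1.10 for Cd74, -1.07 for H2-Aa, -1.01 for H2-DMa, -0.94 for H2-Ab1 and -0.68 for H2-Eb1. The exact permutation test, two-sided, gave p = 0.1 for each of the 8, also after adjustment over the 8, which is the smallest p that 3 arrays against 3 allow. All 8 share the same B2m values and are not independent of each other.

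Other genes of the class II pathway, from a list of 23, were measured in 13 cases, with a median log2 ratio of -0.19. Of these 3 were called lower and 1 higher, beside 3.99% and 2.5% of all tested probes. Ctss, the protease that cleaves the invariant chain in B cells and dendritic cells, gave 212758, 221748 and 234262 in high gainers and 387052, 371041 and 354874 in low gainers. It fell by 1.66-fold (log2 ratio -0.74, adjusted p = 0.00218). Ifi30, the lysosomal reductase that opens disulfide bonds of antigens, fell by 1.86-fold (log2 ratio -0.89, adjusted p = 0.00109), and the costimulatory receptor Cd40 fell by 1.88-fold (log2 ratio -0.91, adjusted p = 0.00621). Ctsl, a related protease, went the other way, with 506271, 470873 and 516756 in high gainers and 290431, 303511 and 282870 in low gainers. It rose by 1.70-fold (log2 ratio 0.77, adjusted p = 0.00166), and Lgmn, a lysosomal protease, had a log2 ratio of -0.04. Without low gainer array 1 there were 4 genes of this list called lower, without high gainer array 3 there were 2, and without any other array there was 1, and Ctsl lost its call without high gainer array 1 or low gainer array 3.

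Of 31 other class I pathway genes 19 were measured, and 0 were called in either direction by limma, with a median log2 ratio of -0.04. Without low gainer array 1, Psmb8 was called lower (log2 ratio -0.69, adjusted p = 0.00907), and no other array changed the count. At an unadjusted p under 0.05, 6 of the 19 were lower, beside 13.6% of all tested probes, and 3 were higher, beside 17.4%, and the test of the methods, unadjusted, called 0 lower and 0 higher at 1.5-fold. The heavy chain H2-K1 had a log2 ratio of 0.03 and Tap2, the partner of Tap1, one of -0.10 (adjusted p = 0.567). Psmb8, a subunit of the immunoproteasome, gave 95908, 98160 and 103255 against 114583, 166697 and 152781, which did not overlap, with a log2 ratio of -0.53 and an adjusted p of 0.0501. Probes of class I heavy chains, which are close paralogs, may share signal.

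**Figure D2:**
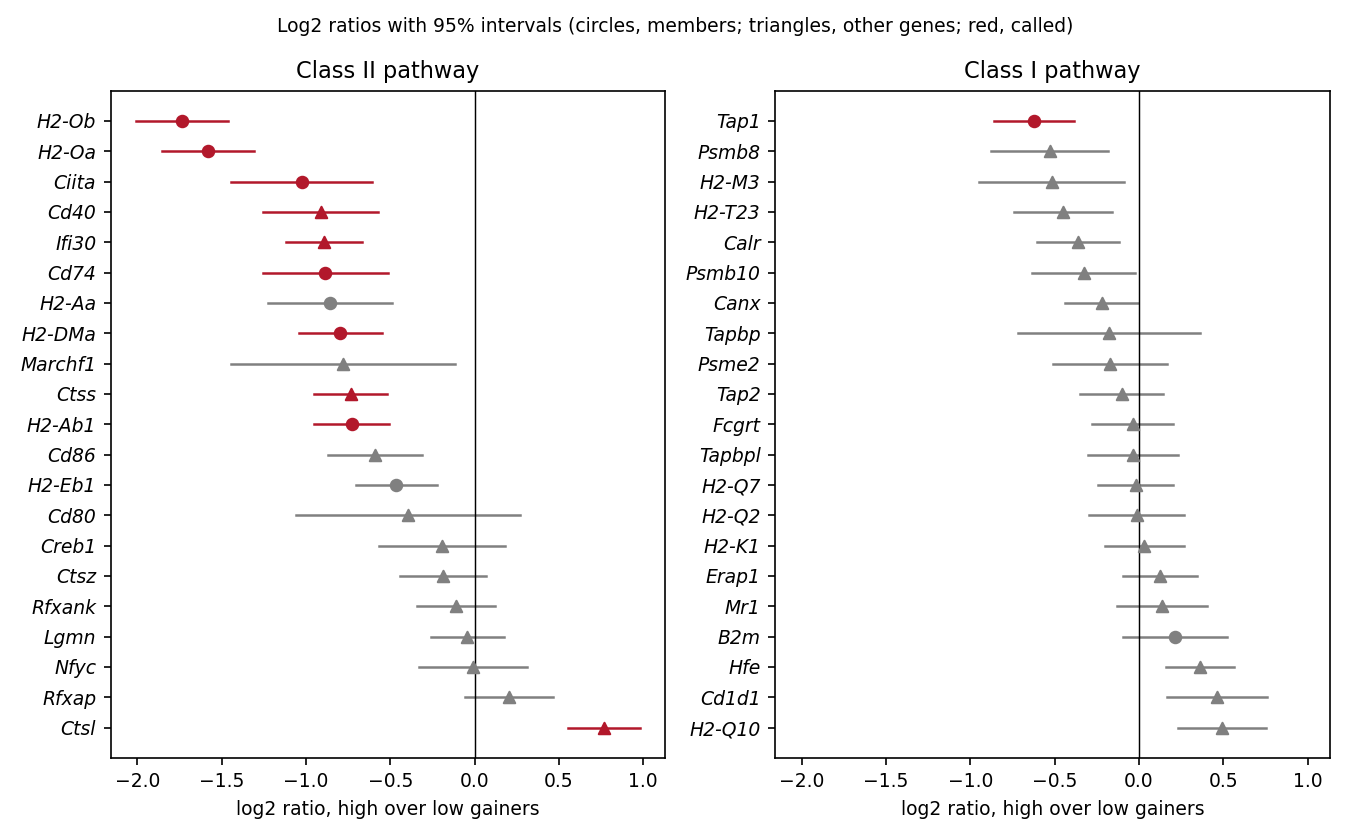
Log2 ratio of high over low gainers (x axis) with its 95% interval for the measured genes of the class II pathway, left, and of the class I pathway, right, with circles for the 10 members, triangles for other genes and red for called genes. Of the class II genes 9 are red to the left of 0 and Ctsl alone is red to the right, and of the class I genes Tap1 alone is red.

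There are 7 members that lie together on mouse chromosome 17. Most of them carry H2 symbols, which name genes of this region, so that their lying together follows from the choice. In the RefSeq order of GRCm38.p6 the stretch from H2-Oa to H2-Eb1 holds 14 genes, of which 13 code for proteins and 10 had a value on all arrays. The 3 measured genes that are not members were not called, with log2 ratios of -0.09 for Brd2, a chromatin reader between H2-Oa and H2-DMa (adjusted p = 0.646), -0.53 for Psmb8 and -0.10 for Tap2. Brd2 gave 92912, 85461 and 81517 in high gainers and 101232, 80346 and 96873 in low gainers, with overlap. The log2 ratios thus ranged from -1.73 to -0.09 among direct neighbors in this stretch.

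**Figure D3:**
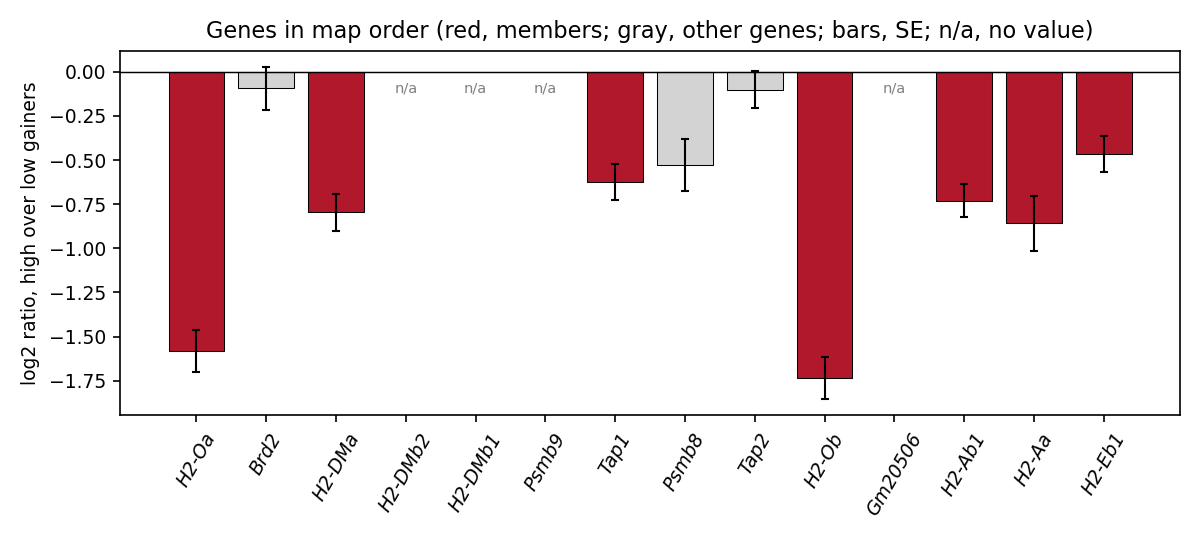
Log2 ratio of high over low gainers (y axis, bars from 0, error bars SE) for the 14 genes in map order, not to distance, with members in red, other genes in gray and n/a where no value was used. Brd2 and Tap2 are near 0 between members that are lower, and H2-Oa and H2-Ob reach furthest below 0.

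Markers of cells that make class II molecules moved in part with the members. Over all tested probes, 3.99% were called lower and 2.5% higher. Of 12 B cell markers measured of 15 listed, 12 were called lower, with a median log2 ratio of -1.52, led by Cd22 (-2.05, a dim probe) and Ms4a1 (-1.92). Their summed signal was 223645 to 238911 on the high gainer arrays and 660529 to 670841 on the low gainer arrays. Blk, a B cell marker with blanks, was not counted and gave 2751 and 2915 on low gainer arrays 1 and 2 only. Of 10 dendritic cell markers measured of 12, 4 were called lower, with a median of -0.69, among them Siglech of plasmacytoid cells (-1.88) and the chemokine Ccl22 (-1.78, a dim probe), while Zbtb46 (0.24, a dim probe) and Cd209a (0.06) were not called, and the sum was 108391 to 116523 against 193956 to 208062. Of 13 macrophage and monocyte markers measured of 18, 1 was called lower, the scavenger receptor Marco (-1.30), and 0 higher, at a median of 0.10. The macrophage antigen Adgre1, a dim probe, had a log2 ratio of 0.01, Lyz1 one of -0.43, and Cd163 (0.44) and C1qa (0.43) had the highest. Marco lost its call without high gainer array 2, low gainer array 2 or low gainer array 3. The macrophage sum was 2958575 to 3132888 in high gainers and 2977995 to 3186215 in low gainers, which overlap. The part of any of these cells in the lower class II signal was not tested.

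Markers of T cells and of lymphoid stroma were lower too, again beside 3.99% of all tested probes called lower and 2.5% called higher. Of 11 T cell markers measured of 16, 9 were called lower with a median of -1.33, led by Cd3g (-1.85) and Cd8b1 (-1.82). Without high gainer array 1 there were 6 T cell markers called. The sum of the 11 was 126482 to 150013 in high gainers and 360712 to 416232 in low gainers. Cd3e, with a blank on high gainer array 3, was not counted. It gave 2326 and 1129 on high gainer arrays 1 and 2 and 4112, 6086 and 4675 in low gainers. Of 5 genes measured of 6 on the lymphoid stroma list, 5 were called lower with a median of -1.50. The lowest was Ltb (-1.70), which is made by lymphocytes rather than by stroma. Next was Glycam1, a product of the high endothelial venules of lymph nodes (-1.55). The sum of the 5 was 377879 to 389869 against 1074974 to 1091545. Of 6 epithelial markers measured of 10, 3 were called lower with a median of -1.24, among them Krt18 (-2.65) and Cdh1 (-2.07), both dim probes, while Cldn3 (0.19) was not called. Epcam, Krt5 and Krt19 had blanks and were not counted. Epcam gave 1001 on high gainer array 2 only and 14220, 12152 and 11672 in low gainers. Krt5 gave 856 on high gainer array 1 only and 9689, 4689 and 6281 in low gainers. Krt19 gave 2369 and 2336 on low gainer arrays 1 and 3 only. Markers of adipocytes, the cells that define the depot, were bright on all arrays, with a sum of 8642708 to 9389533 in high gainers and 8104572 to 8787037 in low gainers. These sums overlapped. Of 13 measured of 18, 0 were called lower and Lep, the leptin gene, was called higher (0.83). The median was 0.19, with 11 ratios positive, among them Pparg (0.36), and 2 negative, Cidec (-0.30) and Dgat2 (-0.22). Of all 15821 tested probes, 8552 had a positive ratio and 7269 a negative one. The call of Lep was kept without high gainer array 3 or low gainer array 2 and lost without any other array. The part of lymphoid or epithelial cells in the lower class II signal was not tested.

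**Figure D4:**
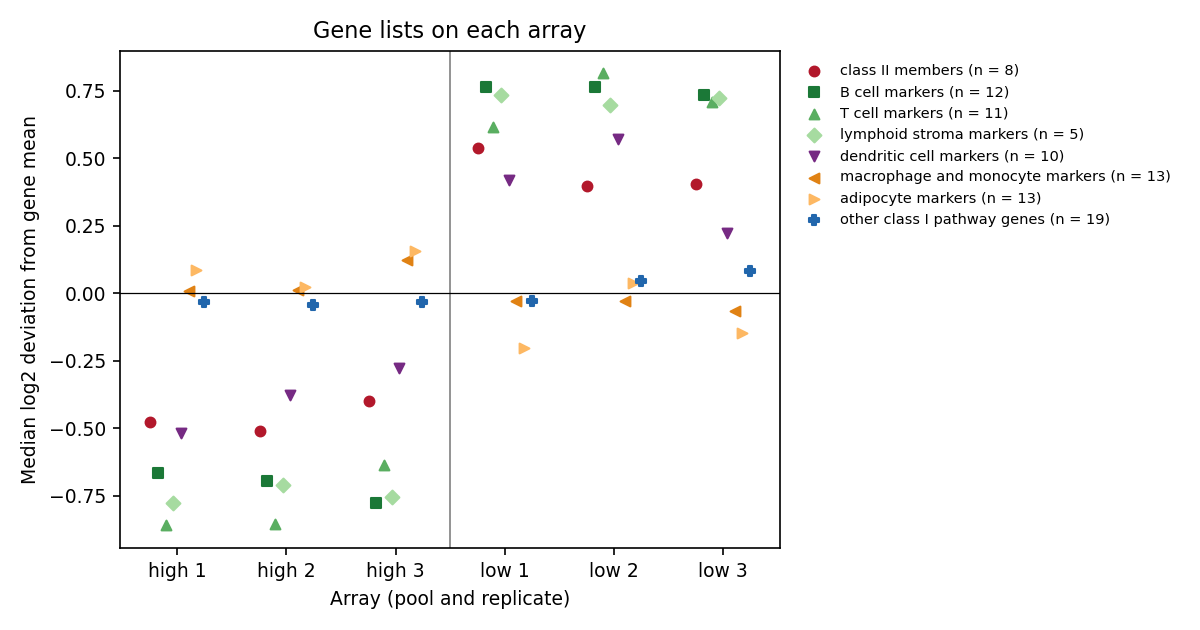
Median log2 deviation of each gene from its own mean over the 6 arrays (y axis) for the 8 class II members, 6 marker lists and the other class I pathway genes, by array (x axis), with the number of measured genes in the key. The class II median is -0.51 to -0.40 on the high gainer arrays and 0.40 to 0.54 on the low gainer arrays, while the macrophage, adipocyte and class I medians stay between -0.20 and 0.16.

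The genes whose profile over the 6 arrays was most like that of Cd74, out of 4882 genes with 1 name and a mean above the median, were Rbm38, Myo1g, Hcar1, Foxp1 and Clu. Likeness was the root mean square distance between log2 values after subtraction of each gene's mean, and it was 0.083 for Rbm38 and 0.129 for Clu. Rbm38 gave 12909, 10756 and 13385 in high gainers and 26340, 20525 and 23489 in low gainers, so that it was lower in high gainers like Cd74 (log2 ratio -0.92). For B2m they were Cdk7, Rnpepl1, Irs3, Tubg1 and Nradd, at distances of 0.055 to 0.065 and log2 ratios of 0.17 to 0.23. The profile covers 2 pools only and therefore says little beyond the difference between them.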

How the data were processed

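Expression was measured in inguinal fat, with 1 RNA pool of 8 high gainers and 1 of 8 low gainers on 3 arrays each. Labeled cRNA was hybridized by the authors to one-color chemiluminescent mouse arrays, and they brought the signal intensities of the arrays to a common distribution (quantile normalization). The deposited intensities are linear, and blank cells mark arrays that gave no value. Features are filtered in the methods by signal to noise and a quality flag, but the origin of the blanks was not given in the sources used here. Values were present for 18018 to 20605 of 33012 probes per array. The number of arrays limits how precise a value can be.

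For the 15821 probes that every array measured, log2 values without a pseudocount were compared between the pools in R 4.3.3 by limma 3.58.1, using lmFit and eBayes, with Benjamini-Hochberg adjustment over all of them. A probe was called at an adjusted p under 0.01 and a fold of at least 1.5, after the thresholds of the methods. By the annotation, 14411 probes have 1 symbol, 247 have several and 18354 have no symbol. Gene identifiers linked 14402 of the symbols to RefSeq genes of GRCm38.p6. No source used here names the genome build of the probes. Arrays correlated at r = 0.988 to 0.994 within a pool and 0.972 to 0.980 between pools, across the tested probes.

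Members and gene lists were chosen with earlier results of these data known. Where a listed gene had several named probes, the tested probe with the highest mean log2 signal stood for it. Among the genes named here, this applied to Creb1 with 3 probes and Cd8b1 with 2. Named were all members, called genes of the other class II, class I and interferon gamma lists, the 2 most changed genes of each cell type list in each direction and the 5 genes most like Cd74 and B2m. The lowest and unchanged genes of these lists were named after their values were seen. Alternatives were a repeated quantile normalization, centering on the median probe or on adipocyte markers, removal of dim probes, probes with 2 arrays of each pool, an offset, an intensity trend with robust estimation, other fold thresholds, a block for the number of the array, an ANOVA per probe as in the methods, and leaving out each array.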

Additional observations from a re-analysis of the deposited data

How the results depend on the processing

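Every class II member and Tap1 kept a negative log2 ratio, and B2m a positive one, under all alternatives run. The median of the class II members ranged from -1.06 to -0.80 and that of the class I loading members from -0.39 to -0.15. Both lowest values came from centering on the median change of 13 adipocyte markers, which shifts all ratios by 0.19 on the log2 scale. With this centering 9 members were called, H2-Aa (adjusted p = 0.00410) and H2-Eb1 (0.00506) among them, and over all tested probes 1021 were called lower and 174 higher, where without it there were 632 and 396. With a 2-fold threshold 3 members were called, with 402 probes lower and 98 higher in all. The ANOVA of the methods with Benjamini-Hochberg adjustment called 1 member, H2-Ob, with 111 probes lower and 46 higher. With an offset of 2848 added to all signals, the log2 ratio of Ciita shrank to -0.66 and Ciita minus B2m was -0.87. With this offset H2-Aa was called and Tap1 fell below 1.5-fold. With probes measured on at least 2 arrays of each pool, Cd74 (adjusted p = 0.0147) and Ciita (0.0131) lost their calls. H2-Aa was also called with dim probes left out (adjusted p = 0.00305) and with an intensity trend and robust estimation (0.000900). Leaving out each array in turn gave 2 to 5 members called, 368 to 493 probes called lower and 105 to 319 called higher. Of the other class II pathway genes, where 3 were called lower and 1 higher, 0 and 0 were called at 2-fold, 0 were called lower by the adjusted ANOVA, and 0 were called higher with the block described next or with the adipocyte centering. Of the interferon gamma genes, where 5 were called lower, 1 was called at 2-fold and 2 with the offset, the block or the adjusted ANOVA. The adjusted ANOVA called 5 B cell, 4 T cell, 2 dendritic cell and 2 lymphoid stroma markers lower. Between high and low gainer arrays of equal number, deviations from the pool mean correlated at r = 0.04, -0.11 and 0.27 over all tested probes. The labels give only the number, and whether such arrays share a batch was not tested. With the number as a replicate block in limma 4 members were called lower, with 446 probes lower and 173 higher in all. H2-Aa was gained (adjusted p = 0.00635), and H2-Ab1 (0.0112), H2-DMa (0.0132), Ciita (0.0299) and Tap1 (0.0211) were lost. The causes of these changes were not tested.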

Other observations

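Interferon gamma is the best known inducer of Ciita and of class II genes. Of 20 genes of its signaling and response 15 were measured, with a median log2 ratio of -0.23. Of these 5 were called lower in high gainers and 0 higher, beside 3.99% and 2.5% of all tested probes. Irf8, a transcription factor of B cells and of dendritic and other myeloid cells, gave 20713, 19977 and 18382 in high gainers and 48474, 51776 and 41765 in low gainers, and fell by 2.40-fold (log2 ratio -1.26, adjusted p = 0.000539 in limma). Ifng itself, a dim probe, gave 2102, 2291 and 2204 against 3877, 4201 and 4104, and fell by 1.85-fold (log2 ratio -0.88, adjusted p = 0.000896 in limma). The chemokine Cxcl10 (log2 ratio -0.68), the GTPase Tgtp1 (-0.61) and the inhibitor Socs1 (-0.59) were also called lower. Irf1, which is induced by interferon gamma, was not called (log2 ratio -0.23, adjusted p = 0.134 in limma), and neither were the receptor genes Ifngr1 (0.14) and Ifngr2 (0.01). The response genes Gbp2 (0.25), Gbp3 (0.02), Iigp1 (-0.22), Irgm1 (-0.22) and Igtp (-0.34) were not called either. Of the 15 ratios, 11 were negative and 4 positive, beside 7269 negative and 8552 positive of the 15821 tested probes. Without high gainer array 2 or low gainer array 1 there were 3 genes of this list called lower, and without any other array 2. Of these genes 1 was called lower at 2-fold. The part of interferon gamma in the lower class II signal was not tested.

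Some genes of these pathways had values on part of the arrays and entered no comparison. Rfx5, which binds the X box of class II promoters, gave 929 and 1120 on high gainer arrays 1 and 2 and 3172 and 2240 on low gainer arrays 1 and 2, and had no value on array 3 of either pool. Nfya, which binds the Y box, gave 4320 and 4525 on high gainer arrays 1 and 2 and 5322, 5904 and 4885 on the low gainer arrays. Jak2, of the interferon gamma list, went the other way, with 2282 and 1965 on high gainer arrays 1 and 2. It gave 1537 and 1668 on low gainer arrays 1 and 2. All values of Jak2, and those of Rfx5 other than 3172, lay below 2848, the offset set at the 10th percentile.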
